A study of Caenorhabditis elegans with 2 samples.

Results

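The sodium/proton exchanger family of Caenorhabditis elegans was examined by its array values in whole L4 larvae, the last larval stage, with and without exposure to a grape seed compound. Members were taken by gene symbol, as the probe sets that name exactly 1 gene called nhx followed by a number, or pbo-4, the exchanger once called nhx-7. This gave 9 genes with 1 probe set each, out of 17118 genes and 22625 probe sets. The family was selected on the difference of nhx-9, which was already known to be among the largest between these 2 arrays. Its own difference, and any count that includes it, is therefore a description, and no test was made on it.

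Both groups were wild-type N2 hermaphrodites grown at 20 °C on bacterial lawns of Escherichia coli OP50. The control array came from larvae raised for 48 hours on plain nematode growth medium, from a synchronous first larval stage to L4. The other came from larvae raised over the same span on medium with 2 µg/mL of pOPC7, which the labels describe as a trimeric proanthocyanidin carrying a gallate and extracted from the seeds of Vitis vinifera. The study asked how such extracts bear on lipid handling in the worm. There was 1 array per group, so no difference below has a replicate check, an SD or a p-value, and whether an array pooled several cultures is not given in the sources used here.

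Sodium/proton exchangers are membrane proteins that trade a sodium ion for a proton and so set the pH of the cytosol, of organelles or of the fluid outside the cell. In the worm's gut such proteins do visible work. NHX-2 at the apical face returns protons that enter with dietary peptides, and its loss leaves animals lean. PBO-4 at the basolateral face releases protons in each defecation cycle, and these protons make the neighbouring muscle contract. Other members sit on internal membranes or in other epithelia, and NHX-9 is known from the excretory cell, which serves the worm's salt and water balance.

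Values are the authors' deposited RMA values on the log2 scale, and a difference is pOPC7 minus control, so that 1.5-fold is 0.58. A gene was called measured when its mean over both arrays was at least 6, a limit of convenience, since no detection calls were used here. By this limit 6 of the 9 exchangers were measured, which were nhx-2, nhx-3, nhx-4, nhx-8, nhx-9 and pbo-4, and each of these 6 reached 6 on both arrays separately. The remaining 3, nhx-1, nhx-5 and nhx-6, were dimmer. Each probe set responds to its own transcript with its own strength, so the levels of different genes given below do not rank the paralogues by transcript amount. No sequences of the probes or of the exchangers were used here.

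nhx-9 differed most within the family. It stood at 6.62 in the control larvae and at 7.54 in the exposed larvae, which is a difference of 0.92 or 1.89-fold. The exposed array was the higher one, and the gap to the next exchanger, nhx-3, was 0.50. The nhx-9 probe set does not carry a suffix that marks matches to several transcripts. Among all measured genes its difference was 7th from the highest, and only nhx-9 of the 6 measured exchangers passed 1.5-fold, against 0.943% of all 8059 measured genes in either direction and 0.732% in the higher direction. Among the 6058 measured genes that rest on 1 probe set, as every exchanger does, 1.19% passed 1.5-fold. Those past it in all were 59 higher and 17 lower, a split that depended on the scaling, with 41 and 30 after centring on the median and 34 and 35 after a trend with level was removed. No exchanger reached 2-fold, which 0.0248% of measured genes did. Nothing is read from these shares for nhx-9, because its difference was the reason for the choice.

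**Figure D1:**
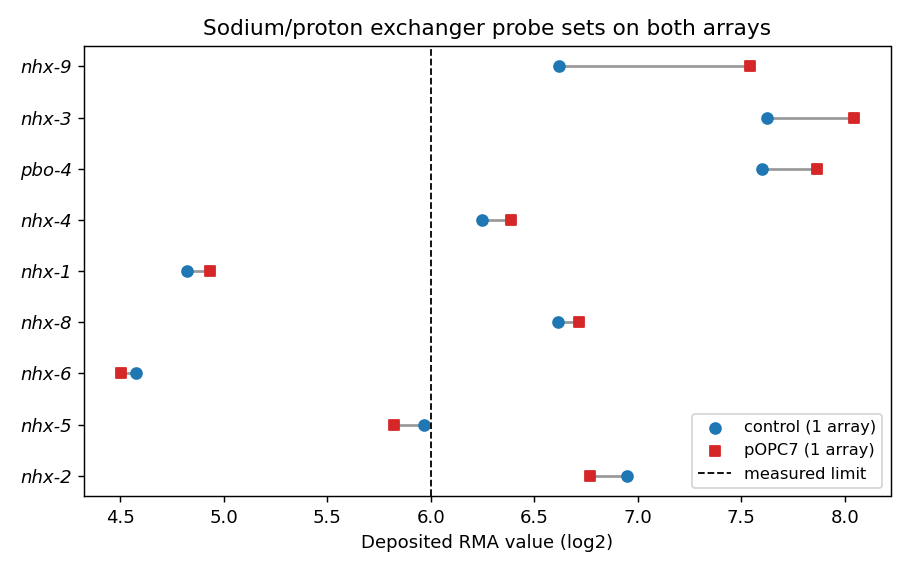
Deposited RMA values (log2, horizontal axis) of the 9 exchanger probe sets, ordered by their difference, with a circle for the 1 control array and a square for the 1 pOPC7 array. The dashed line is the measured limit of 6. nhx-9 moves from 6.62 to 7.54, while nhx-1, nhx-5 and nhx-6 lie below the limit on both arrays.

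The error of these values could be gauged only from probe sets of the same gene on the same 2 arrays. Several measured probe sets were available for 1721 genes, and the probe sets of such a gene scattered around its mean difference with an SD of 0.23. For 660 genes with several probe sets at means from 6 to 8, the range that holds the measured exchangers, the SD was 0.25. This scatter includes real differences between transcripts of a gene and leaves out the spread between cultures. Measured genes near nhx-9 in level had a robust SD of 0.20. Besides nhx-9, the exchangers whose difference exceeded an SD of 0.25 were nhx-3 and pbo-4. By size of difference nhx-3 ranked 328th and pbo-4 1371st among the 8059 measured genes, so many other genes exceeded it too.

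For nhx-3 the control array gave 7.62 and the exposed array 8.04. Its difference of 0.42, or 1.34-fold, was 2.43 times the robust SD of measured genes at a like level (0.17) and did not reach 1.5-fold. pbo-4, the exchanger of the posterior gut that drives the body contraction of defecation, had 7.60 on the control array and 7.86 on the exposed array. The difference was 0.27 or 1.20-fold, 1.54 times the robust SD of genes at that level. Like nhx-9, both were higher on the exposed array, and both differences were less than 2 times the single probe set SD of 0.25.

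nhx-2, whose product takes sodium up from the gut lumen in exchange for protons, was the only measured exchanger with the lower value on the exposed array. The control array gave 6.95 and the exposed array 6.77, so the difference was -0.18 or 0.88-fold. This is less than the single probe set SD, and its direction is not resolved by these 2 arrays.

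The broadly expressed exchanger gene nhx-4 had 6.25 on the control array and 6.39 on the exposed one (difference 0.14). nhx-8, grouped with the exchangers of internal membranes, had 6.62 and 6.72 (difference 0.10). Both differences are smaller than the single probe set SD.

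The 3 dim members showed no large difference either. nhx-5, which acts on endosomes and is studied in neurons, lay just under the limit at 5.97 without and 5.82 with exposure (difference -0.15). Its probe set is the only one of the 9 whose suffix marks matches to several transcripts, so its value may include other RNAs. nhx-1 had 4.82 and 4.93 (difference 0.11), and nhx-6 had 4.57 and 4.50 (difference -0.07). Background can compress fold changes at such low values, but low values did not scatter less here. With no limit on level 410 of 17118 genes passed 1.5-fold, against 76 of 8059 measured genes. The SD across genes was 0.23 over all genes and 0.20 over measured genes.

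Among the measured members 5 of 6 lay above 0, where 57.8% of all measured genes did. The share was 62.2% for measured genes with 1 probe set and 61.4% for those at means from 6 to 8. The median difference of the 6 was 0.20, beside 0.04 over all measured genes. Without nhx-9 the median of the other 5 was 0.14, with a range from -0.18 to 0.42 and an SD across genes of 0.22, beside an SD of 0.20 over all measured genes. Over all 9 members the median was 0.11, beside 0.06 over all 17118 genes. All 9 exchanger probe sets carry numbers of 180000 or more. Measured probe sets with such numbers had a median of 0.06, while those with lower numbers had -0.01, and the part of this in the family's median was not tested.

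**Figure D2:**
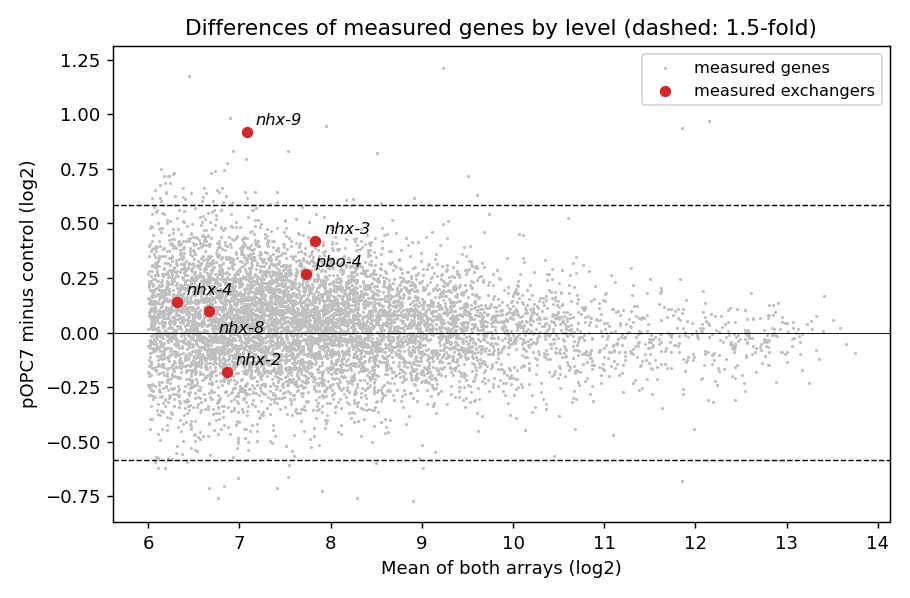
Difference (pOPC7 minus control, log2) against the mean of both arrays (log2) for the 8059 measured genes in grey and the 6 measured exchangers in red, 1 array per group. Dashed lines mark 1.5-fold, which nhx-9 passes at 0.92. nhx-3 at 0.42 and pbo-4 at 0.27 lie in the upper part of the cloud and nhx-2 at -0.18 in the lower part.

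Over all probe sets the array medians were 5.94 in the control and 5.99 with pOPC7. The values had been normalised by RMA, so near medians do not show that the samples were alike. Over the measured genes the 2 arrays had r = 0.991, a correlation across genes and not across replicates. After centring on the median of measured genes nhx-9 differed by 0.88, nhx-3 by 0.38, pbo-4 by 0.23 and nhx-2 by -0.22. With a trend of the difference on level removed, the values were 0.86 for nhx-9, 0.38 for nhx-3, 0.22 for pbo-4 and -0.24 for nhx-2. None of the 9 exchangers changed sign under these scalings, although nhx-1 came close to 0 with the trend removed, at 0.01.

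**Figure D3:**
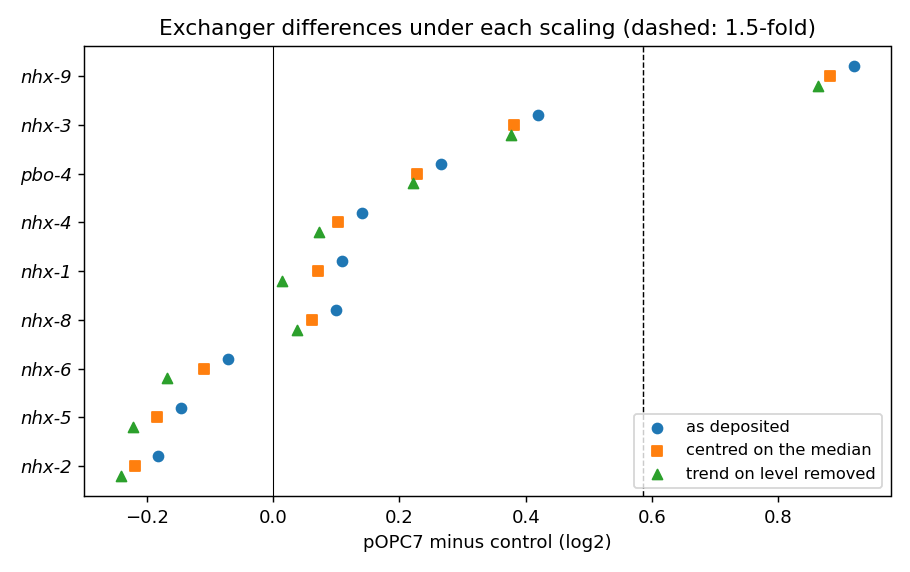
Differences (pOPC7 minus control, log2, horizontal axis) of the 9 exchanger genes on the deposited scale, after centring on the median of measured genes, and after removal of a loess trend on level, with 1 array per group. The dashed line marks 1.5-fold. nhx-9 stays beyond it at 0.86 to 0.92, and each gene keeps its side of 0.

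The 3 measured genes whose pair of values lay closest to that of nhx-9 were T01G1.2, T19H5.4 and ugt-13, by Euclidean distance over the 2 arrays. T01G1.2 had 6.67 in the control and 7.46 with pOPC7, at a distance of 0.09 log2 units. T19H5.4 had 6.74 and 7.38 (distance 0.20), and ugt-13, which encodes a UDP-glucuronosyltransferase, had 6.77 and 7.39 (distance 0.21). With only 2 values per gene, this likeness says no more than that level and difference are similar. The genes on either side of nhx-9 in the WBcel235 annotation, looked up after its value was known, differed less. Nearly any gene would, beside one chosen for its large difference. srlf-32 had 6.94 and 7.21 (difference 0.27), and slc-5A12 had 6.99 and 7.07 (difference 0.09).

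Exchangers work with pumps, carriers and signalling proteins that move sodium, protons and bicarbonate, and 5 lists of such genes were examined. Of 90 listed genes 86 had a probe set that names them alone and 48 were measured. None of the 48 passed 1.5-fold in either direction, where 0.943% of measured genes did. At that background fewer than 1 gene would be past it in a list of this length, so the count carries little information.

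The defecation list holds the calcium and proton signalling around PBO-4. Its 12 measured members of 26 had a median of 0.02, and 6 lay above 0. pbo-1, which encodes a calcium-binding partner of the exchangers in the gut, had 9.06 without and 9.04 with exposure, and its 2 probe sets disagreed in sign, with differences of -0.10 and 0.06. plc-3, a phospholipase C gene, was higher by 0.43 and nlp-40, a neuropeptide gene of the gut, by 0.29. The potassium channel gene kqt-2 and the innexin gene inx-16 were higher by 0.17 and 0.13. itr-1, the gene of the inositol trisphosphate receptor that times the cycle, differed by -0.07. pbo-5, a subunit of the muscle receptor that senses the protons released by PBO-4, was below the limit with 4.30 in the control and 5.05 with pOPC7. Its difference of 0.75, or 1.68-fold, was past 1.5-fold. With no limit on level 410 of 17118 genes were past 1.5-fold, so nothing is read from the pbo-5 value. pbo-6 is not analysed here.

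Bicarbonate and sulphate carriers and carbonic anhydrases, which buffer the same protons, had 5 measured genes of 18. Their median was 0.18, and 3 lay above 0. The carbonic anhydrase gene cah-5 was higher by 0.48, with 6.73 in the control and 7.21 with pOPC7. sulp-6 of the sulphate permease family was higher by 0.25 and cah-4 by 0.18, whereas cah-3 differed by -0.16 with probe sets of opposite sign (-0.39 and 0.08). Below the limit cah-1 had 5.06 in the control and 4.33 with pOPC7. Its difference of -0.74 was past 1.5-fold, in the direction opposite to pbo-5. With a limit of 7 instead of 6 the median of the 3 genes left was -0.14, which is the value of abts-1. The 3 probe sets of abts-1 ran from -0.74 to 0.17, and all carry suffixes that mark several transcripts.

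The list of the sodium pump, which builds the gradient that the exchangers use, also held sodium/calcium exchangers and cation-chloride cotransporters. Its 10 measured genes of 22 had a median of 0.00 and 5 lay above 0. catp-3, related to the catalytic pump subunit, was higher by 0.34, and eat-6, the main catalytic subunit, differed by -0.11. The beta subunit gene nkb-2 had -0.20, kcc-2 had 0.19 and nkcc-1 had 0.14. Of the proton-coupled peptide transporters 2 of 3 were measured. pept-1, whose uptake of peptides loads the gut cell with the protons that NHX-2 removes, had 8.71 in the control and 8.63 with pOPC7 (difference -0.08), and pept-3 was higher by 0.14.

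The vacuolar ATPase pumps protons out of the cytosol, and 19 of its 21 listed subunit genes were measured. Their median was -0.03, and 6 lay above 0. These genes were bright, with a median level of 9.65 in the control. Over all measured genes the share above 0 was lower at high levels. It was 55.6% at means from 8 to 10 and 43.7% at 10 or more. vha-5, an a subunit of the hypodermis and the excretory canal, had 6.47 without and 7.01 with exposure. Its difference of 0.54 is short of 1.5-fold. The a subunit genes of the hypodermis and the gut, vha-7 and vha-6, were lower by contrast, at -0.27 and -0.16. vha-15 differed by -0.25 and vha-1 by -0.17, the latter with -0.34 and 0.01 in its 2 probe sets.

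**Figure D4:**
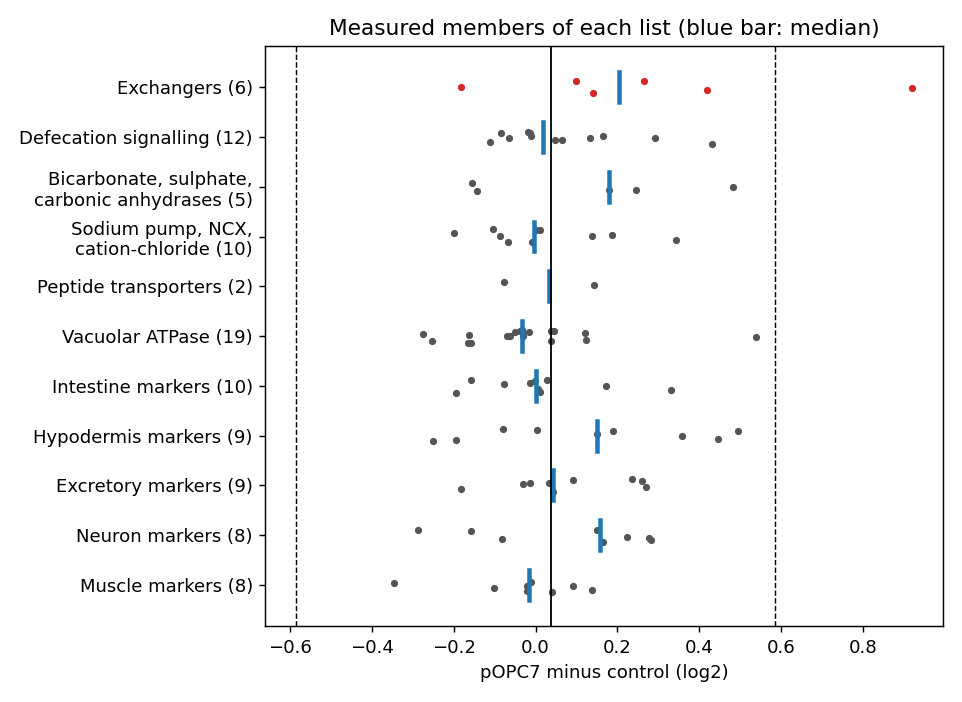
Differences (pOPC7 minus control, log2) of the measured members of each list, with the number of genes in brackets, the exchangers in red and the list medians as blue bars, 1 array per group. The solid line is the median of all measured genes (0.04) and the dashed lines mark 1.5-fold. nhx-9 is the only point beyond a dashed line.

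In whole larvae a higher value can come from more RNA per cell or from more of the cells that make it, and these cannot be told apart. Markers of the excretory canal, duct and pore, where nhx-9 is expressed in the canal cell, were measured for 9 of 18 genes. Their median difference was 0.04, and the members ran from -0.18 to 0.27, with exc-4 at 0.27, nhr-31 at 0.26 and aqp-8 at 0.24. The lowest was mop-25.2, whose 2 probe sets disagreed in sign (-0.60 and 0.24). The 0.92 of nhx-9 was larger, but nhx-9 was chosen for its large difference, so nothing is read from that gap. The part of cell number in the nhx-9 value was not tested. The median level of the 9 was 7.28 in the control and 7.38 with pOPC7. With the brightest probe set of each gene in place of the mean, the median difference was 0.17 over 11 genes. Among the 9 below the limit were ceh-6 and pros-1, regulators of that cell, at -0.04 and 0.26. These 9 ran from -0.32 for let-653 to 0.46 for lin-48.

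Intestinal markers, which follow the tissue of nhx-2 and pbo-4, had a median of 0.00 over 10 of 11 genes, 5 of them above 0. elt-7 was highest at 0.33, then pho-1 at 0.17, and cpl-1 was lowest at -0.19. Hypodermal markers had a median of 0.15 over 9 of 10 genes, 6 lay above 0, and the members ran from -0.25 to 0.50. The moulting regulator nhr-23 was higher by 0.50, the collagen gene rol-6 by 0.45 and grd-10 by 0.36. Neuron markers had 0.16 over 8 of 12, with sbt-1 and unc-119 at 0.28 each and egl-21 at -0.29, and body wall muscle markers had -0.02 over 8 of 8, with act-4 at -0.35, myo-3 at 0.14 and lev-11 at -0.10. None of 4 male markers was measured. The part of these shifts in the exchanger values was not tested.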

How the data were processed

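Whole-worm total RNA (200 ng per array) was amplified and labelled with biotin, per the labels' protocols. The deposited table holds log2 values made by the authors with RMA, per the submitters' processing notes; its version is not given in the sources used here. The log2 scale was read from the values, which run from 1.78 to 13.90. Of 22625 probe sets 20766 name 1 gene in the platform annotation, 887 several and 972 none; all 9 exchangers matched WBcel235 by Entrez identifier under the same symbol.

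Probe sets that name only 1 gene were averaged per gene. Members and gene lists were chosen with earlier results of these data known. Named were every exchanger, the 3 genes nearest to nhx-9, and pbo-1, pbo-5, pbo-6, pept-1 and vha-6. Up to 4 measured genes with the largest absolute difference were also named per partner list, and 3 per marker list. The genes itr-1, eat-6, cah-1, abts-1, ceh-6, pros-1, mop-25.2, let-653, lin-48 and the neighbours of nhx-9 were added after their values were seen. Robust SDs (1.4826 times the median absolute deviation) used the 500 measured genes nearest in level. The loess span was 0.3. Code was tested on simulated data. With 1 array per group no test was run, and precision is limited by the number of arrays. Python 3.11.15, pandas 2.3.3, numpy 2.4.6, statsmodels 0.14.6 and matplotlib 3.10.9 were used.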

Additional observations from a re-analysis of the deposited data

How the results depend on the processing

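Alternatives covered the limit on level (mean of at least 5, of at least 7, no limit, or only the brighter array at 6), the scale (centred, or with a loess trend removed), omission of probe sets whose suffix marks several transcripts, the brightest probe set, other thresholds, and the mean of a list; leaving out nhx-9 and centring on probe sets numbered 180000 or more were chosen after seeing the data. Differences that moved by less than the single probe set SD of 0.23 were taken as equal. For medians the bound was the standard error of a median that this SD gives at the number of genes. Counts were taken as equal when identical or, if both were above 0, within 1.5-fold of each other. By these rules 141 of 147 comparisons were equal, and no exchanger changed sign. Part of this was fixed in advance. Each exchanger has 1 probe set, so neither the brightest probe set nor the omission of suffixed ones could alter an exchanger's value. The omission only drops nhx-5. Centring shifts every gene by the same 0.04, which is below that SD. nhx-9 ranged from 0.86 to 0.92, was the 1 exchanger past 1.5-fold in every setting and the only one past 3 local robust SDs, but at 2-fold the count was 0. The share of all measured genes past 3 local robust SDs is not given here. Nothing is read from these counts, because nhx-9 was chosen on this difference. Measured genes past 1.5-fold numbered 76 of 8059, against 151 of 10071 with a mean of at least 5. They were 29 of 5776 with at least 7 and 410 of 17118 with no limit. With a mean of at least 7 the family median was 0.42 (3 genes), that of the bicarbonate list -0.14 and that of neuron markers 0.033, with fewer genes counted by construction. Neuron markers had 0.043 without suffixed probe sets, and excretory markers 0.17 with the brightest probe set; the cause was not tested. Elsewhere the family median lay between 0.11 and 0.20, and the mean over the family was 0.28. No paired analysis was possible because each group has 1 array. Low signal limits nhx-1, nhx-5 and nhx-6 most.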
